A study of Mus musculus with 8 samples.

Results

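The genes described here build, cross-link and cut the extracellular matrix: collagens, laminins, the enzymes and chaperones that mature collagen, matrix metalloproteinases and their inhibitors, Adamts proteases, thrombospondins and the matricellular Ccn family. They were picked by gene symbol with earlier results of these data known, so counts beside those of all genes are descriptions. Symbols of 82 of the 19805 genes in the deposited tables matched. Of these, 74 were in the ILC2 table, 51 in the CD8 table and 43 in both. No value in the tables is 0, so a gene with 0 reads in 1 library of a table does not appear in it. Another 47 mouse genes of these families, Col3a1, Col5a2, Loxl1 and Lamb1 among them, were in neither table and are not analysed here. Group 2 innate lymphoid cells (ILC2s), lymphocytes that lack antigen receptors and secrete type 2 cytokines, came from the lung of wild-type (WT) mice, and CD8 T cells came from the spleen of WT mice. The study asked whether ILC2s present antigen to CD8 T cells. Its 4 groups of 2 libraries each were ILC2s cultured on their own and labelled untreated, ILC2s co-cultured with CD8 T cells, CD8 T cells on their own and labelled untreated, and CD8 T cells co-cultured with ILC2s, all primary cells isolated by flow cytometry after culture. Co-culture lasted 3 days at a ratio of 5 to 1, with CD8 T cells named first. Strain, age, sorting markers, cytokines in the medium and the number of mice are not in the labels, and nothing there says that replicates were separate cultures, so each p-value reflects only how far these libraries lie apart, which may be technical.

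Collagen chains are hydroxylated and folded in the endoplasmic reticulum, trimmed outside the cell by procollagen proteinases and cross-linked by lysyl oxidases. Fibrillar collagens are products chiefly of fibroblasts, whereas collagen IV and laminins form basement membranes. Matrix metalloproteinases (MMPs) cleave these proteins and are held in check by tissue inhibitors of metalloproteinases (TIMPs), and leukocytes carry several MMPs and laminin chains of their own.

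Library totals lay between 48072595 and 67076905 counts. Levels are given in CPM (reads of a gene scaled to a common library total), for replicate 1 and then replicate 2. The ILC2 libraries labelled alone held more RNA of marker genes of other cell types than those labelled co-cultured. All 12 CD8 T cell markers fell in the libraries labelled co-cultured, with a summed level of 1729 to 1849 CPM labelled alone and 260.2 to 307 labelled co-cultured. All 6 measured macrophage markers of a list of 15 fell as well, from 2409 and 2908 CPM to 16.8 and 32.4. Fibroblast markers that are not in the gene set were represented by 8 of 25 genes. Ddr2, Dcn, Pdgfrb and Fbln1 fell, Lum rose, and Vim, Thy1 and S100a4 did not pass the test. Their summed level was 2211 to 2306 CPM labelled alone and 1017 to 1023 labelled co-cultured, most of it Vim in the latter. Of 24 ILC2 identity genes 20 rose and 1 fell in libraries labelled co-cultured (5478 to 5517 against 12965 to 13239 CPM). Markers of several other cell types fell in the same libraries. They were 9 of 10 epithelial genes (406 to 415 CPM alone and 82.0 to 85.4 co-cultured), 4 of 4 NK cell genes (327 to 363 and 7.59 to 13.5), 6 of 6 granulocyte and mast cell genes (159 to 186 and 31.4 to 33.3) and 4 of 6 endothelial genes, of which the other 2 rose (282 to 286 and 194 to 209.8). Further lists were mixed, where 34.4% of all genes fell and 31.8% rose. Of 7 B cell genes 2 fell and 1 rose, and of 6 dendritic cell genes 3 fell and 1 rose. Of 5 smooth muscle and pericyte genes 3 fell and 1 rose. Groups are therefore named by their labels, and any part of other cells in the results was not tested. In bulk RNA, fewer cells of a type and less RNA per cell cannot be told apart.

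In ILC2s most matrix genes were far lower in the libraries labelled co-cultured, while a few, Col18a1, Lama5 and Plod2 among them, were higher. Together the genes took 17333 and 18488 CPM in the libraries labelled alone and 1291 and 1215 in those labelled co-cultured. Of the 72 that passed the filter on low counts, 54 were lower, 9 were higher and 9 did not pass edgeR's quasi-likelihood test at an adjusted p of 0.05. Over all tested genes 66.3% passed, 34.4% lower and 31.8% higher. The median log2 change (co-cultured minus alone) of the 72 was -4.81, against -0.01 for all 16739 genes. Col2a1 and Mmp7 were in the table but under the filter. CPM of the groups did not overlap in 57 genes that were higher labelled alone (49.6% of all genes) and in 10 that were higher labelled co-cultured (33.8% of all genes).

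**Figure D1:**
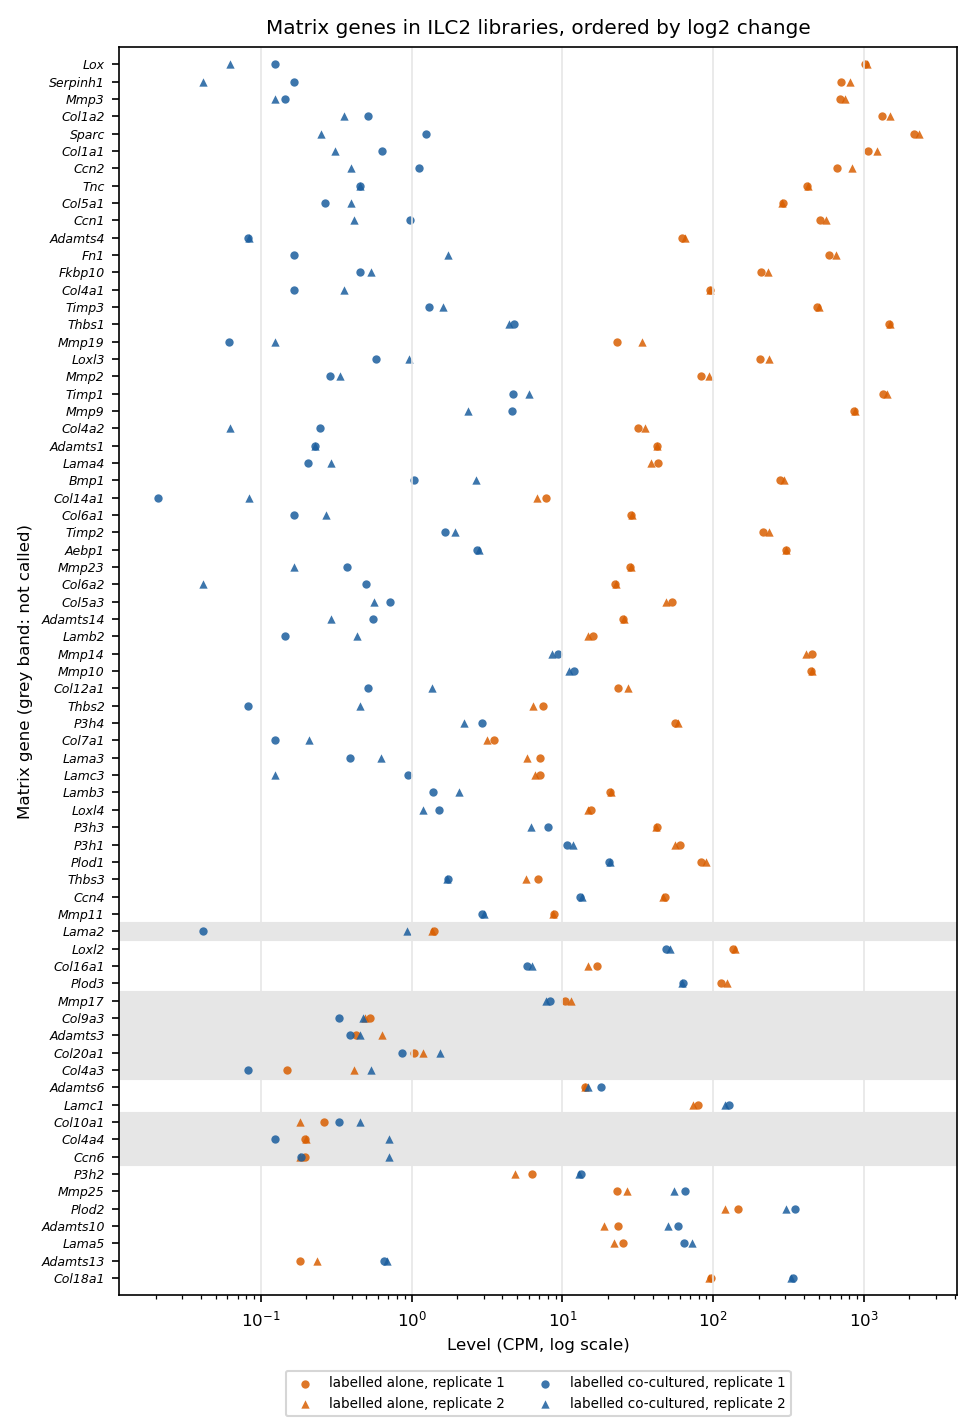
Level (CPM, log axis) of 71 tested matrix genes in the 4 ILC2 libraries, 1 row per gene, ordered from the largest fall (top) to the largest rise (bottom), with orange marks for libraries labelled alone, blue marks for those labelled co-cultured, circles for replicate 1, triangles for replicate 2 and a grey band where the change did not pass the test. Orange marks lie to the right of blue ones in 56 rows and to the left in 10, and the rises shown are those under TMM scaling, of which Lamc1 and Adamts6 change sign under scaling to ILC2 identity genes.

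A gene was counted as lost when it was called lower by 8-fold or more (a log2 change of -3 or below). By that rule 44 of the 72 were lost, against 5.88% of all tested genes, 10 fell by less than 8-fold, 9 were not called and 9 rose. Genes without reads in a library are missing from the table, so these shares leave out any gene that fell to no reads. No gene lay between -3.25 and -2.34. The last inside were Lamc3 (-3.43), Lamb3 (-3.38) and Loxl4 (-3.25), and the first outside were P3h3 (-2.34), P3h1 (-2.15) and Plod1 (-1.85). The lost genes made up 94.5% and 94.9% of the summed matrix CPM in the libraries labelled alone and 4.70% and 4.87% in those labelled co-cultured. The 28 genes not lost summed to 961.3 and 935.4 CPM labelled alone and to 1230.1 and 1155.2 labelled co-cultured. The rule sorted genes by their change in these same libraries, so the drop in the share of the lost genes had to follow. These sums describe the classes and are no separate result.

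All 4 tested fibrillar collagen genes were lost, as were 5.88% of all tested genes. Col1a1, the alpha 1 chain of type I collagen (GRCm38 chromosome 11, 94936224 to 94953042), stood at 1068 and 1226 CPM in libraries labelled alone and at 0.64 and 0.312 in those labelled co-cultured. Its partner chain Col1a2 (chromosome 6, 4505618 to 4541543) stood at 1319.8 and 1480.0 CPM alone and 0.516 and 0.354 co-cultured. Each library labelled alone was far above each one labelled co-cultured for both chains. Ratios of pooled reads, alone over co-cultured, sum both replicates and divide by the summed library totals. They were 2400.1 (95% counting interval 1799 to 3278) for Col1a1 and 3209.6 (95% counting interval 2374 to 4454) for Col1a2. The log2 changes were -11.01 ± 0.25, adjusted p = 4.6e-11 for Col1a1 and -11.43 ± 0.22, adjusted p = 1.9e-11 for Col1a2 (edgeR). Col5a1, a chain of the minor fibril collagen that regulates fibril assembly, fell from 291 and 288 CPM to 0.268 and 0.395 (log2 change -9.55 ± 0.20, adjusted p = 2.8e-11, edgeR), and Col5a3 fell from 52.9 and 48.5 to 0.722 and 0.562. The microfibrillar collagen VI chains fell likewise, Col6a1 from 28.3 and 28.9 to 0.165 and 0.27 CPM and Col6a2 from 22.4 and 22.7 to 0.495 and 0.0416. For Col6a2 the lower of the co-cultured libraries held 2 reads, and the ratio of pooled reads was 83.7 (95% counting interval 57 to 128).

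Collagens that sit on fibrils were mixed. Col12a1 and Col14a1, fibril-associated collagens of connective tissue, were lost, the first from 23.2 and 27.4 CPM to 0.516 and 1.37 and the other from 7.74 and 6.82 to 0.0206 and 0.0832. Col14a1 rested on 1 and 4 reads in the co-cultured libraries, which gives a ratio of 141 (95% counting interval 60.2 to 435). Col16a1, of the same class, held 16.9 and 14.8 CPM alone and 5.84 and 6.28 co-cultured, a smaller fall that left the groups apart (log2 change -1.17 ± 0.16, adjusted p = 4.9e-05, edgeR). Col9a3 and Col20a1 stayed at or below 1.54 CPM in every library and were not called. Col7a1, which anchors epithelial basement membranes, fell from 3.52 and 3.18 CPM to 0.124 and 0.208.

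The collagen IV genes Col4a1 and Col4a2, the main chains of basement membranes, were lost together, whereas Col4a3 and Col4a4 were at or below 0.707 CPM in all 4 libraries and were not called. Col4a1 held 95.4 and 94.7 CPM alone and 0.165 and 0.354 co-cultured, and Col4a2 held 31.6 and 35.2 alone and 0.248 and 0.0624 co-cultured. With 3 reads in co-cultured replicate 2, the Col4a2 ratio of pooled reads was 215 (95% counting interval 129.9 to 384), while that of Col4a1 was 367 (95% counting interval 249 to 567). Both genes start from opposite strands of the same stretch of chromosome 8, and their start windows in RefSeq (GRCm38.p6, 250 bases before to 50 after the start) share 78 bases, 11312777 to 11312854. Both windows are shown because the genes moved together; capitals mark the letters CCAAT and GGGCGG, or their reverse complements ATTGG and CCGCCC, searched on both strands.
Col4a1, chr8:11312777-11313076, minus strand: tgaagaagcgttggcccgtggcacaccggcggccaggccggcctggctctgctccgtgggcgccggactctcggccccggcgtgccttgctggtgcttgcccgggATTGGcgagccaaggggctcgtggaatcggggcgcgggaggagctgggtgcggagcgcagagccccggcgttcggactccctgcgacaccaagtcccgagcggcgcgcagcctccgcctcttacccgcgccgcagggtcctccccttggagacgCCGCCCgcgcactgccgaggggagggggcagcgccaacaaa
Col4a2, chr8:11312555-11312854, plus strand: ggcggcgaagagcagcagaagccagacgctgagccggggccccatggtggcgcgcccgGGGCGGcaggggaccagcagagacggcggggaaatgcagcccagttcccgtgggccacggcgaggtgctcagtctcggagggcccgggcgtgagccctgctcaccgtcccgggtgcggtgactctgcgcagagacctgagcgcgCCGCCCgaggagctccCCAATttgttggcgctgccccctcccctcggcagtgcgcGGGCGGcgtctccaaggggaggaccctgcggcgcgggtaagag
Col4a2 held 1 CCAAT and 3 GGGCGG matches and Col4a1 held 1 of each, and the GGGCGG that begins 8 bases after the Col4a2 start is the same site as the one 10 bases after the Col4a1 start, in the shared bases. Of all 32851 RefSeq windows of this length, 37.41% held CCAAT and 35.66% held GGGCGG, which is the share to read these matches against.

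Col18a1 was the 1 collagen gene that rose in ILC2s. This basement membrane collagen, whose cleaved end is known as endostatin (chromosome 10, 77052178 to 77166530), held 96.2 and 94 CPM in ILC2s labelled alone and 339 and 326 in those labelled co-cultured. Both co-cultured libraries were above both alone, 3.5 times by the means, and the log2 change of 2.02 ± 0.12, adjusted p = 5.5e-08 (edgeR) was the largest rise of the 72. RefSeq lists 2 starts for it, and the counts per gene do not separate them. Their windows are shown as those of the gene that rose most, with CCAAT and GGGCGG matches again in capitals.
Col18a1 start 1, chr10:77166481-77166780, minus strand: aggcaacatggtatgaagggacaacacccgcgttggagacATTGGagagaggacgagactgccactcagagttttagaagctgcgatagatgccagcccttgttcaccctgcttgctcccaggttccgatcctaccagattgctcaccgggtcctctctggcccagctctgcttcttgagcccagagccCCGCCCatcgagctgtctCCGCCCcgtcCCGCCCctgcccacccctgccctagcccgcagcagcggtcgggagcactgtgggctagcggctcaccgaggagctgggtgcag
Col18a1 start 2, chr10:77113656-77113955, minus strand: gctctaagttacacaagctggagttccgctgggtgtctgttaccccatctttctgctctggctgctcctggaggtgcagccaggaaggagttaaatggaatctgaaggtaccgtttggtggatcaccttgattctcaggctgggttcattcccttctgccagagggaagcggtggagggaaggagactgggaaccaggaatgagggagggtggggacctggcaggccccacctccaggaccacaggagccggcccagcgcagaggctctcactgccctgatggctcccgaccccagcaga
Start 1 held 1 CCAAT and 3 GGGCGG matches as reverse complements, and start 2 held neither. Col10a1, a short-chain network collagen of cartilage, stayed at 0.180 to 0.458 CPM and was not called.

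Genes that mature collagen split by enzyme. Serpinh1, the collagen chaperone HSP47, fell from 702 and 806 CPM to 0.165 and 0.0416, where the co-cultured libraries held 8 and 2 reads. The ratio of pooled reads was 7257 (95% counting interval 3946 to 15133) and the log2 change -12.59 ± 0.28, adjusted p = 3.7e-11 (edgeR). Fkbp10, a prolyl isomerase of collagen folding, fell from 208 and 232 to 0.454 and 0.541 CPM. P3h4, a partner of lysyl hydroxylation, was lost too, from 56.2 and 58.2 to 2.95 and 2.23 CPM. The prolyl 3-hydroxylases P3h1 and P3h3 and the lysyl hydroxylases Plod1 and Plod3 fell less and remained readily measured. P3h1 held 59.8 and 55.9 CPM alone and 10.7 and 11.8 co-cultured (log2 change -2.15 ± 0.13, adjusted p = 7.7e-08, edgeR), and P3h3 held 42.1 and 41.7 alone and 8.07 and 6.18 co-cultured (-2.34 ± 0.17, adjusted p = 2.9e-07). Plod1 held 82.6 and 89.9 CPM alone and 20.5 and 20.7 co-cultured (-1.85 ± 0.13, adjusted p = 2.1e-07, edgeR), and Plod3 held 113 and 123 alone and 63.3 and 61.7 co-cultured (-0.70 ± 0.12, adjusted p = 0.00037). In all 4 of these the alone libraries were the higher ones.

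Plod2 and P3h2, of the same families, rose. Plod2 hydroxylates the collagen telopeptides that lysyl oxidases later cross-link (chromosome 9, 92539636 to 92608428), and it held 146 and 121 CPM alone and 348 and 302 co-cultured (log2 change 1.50 ± 0.14, adjusted p = 2.5e-06, edgeR). The lowest co-cultured library was above the highest alone. P3h2 held 6.26 and 4.85 CPM alone and 13.2 and 13 co-cultured (1.45 ± 0.18, adjusted p = 2e-05, edgeR). Of P3h2's exonic bases 28.4% also lie in the antisense gene Gm4524, and with the strand setting not given in the sources used here their reads cannot be told apart. Among procollagen-processing genes, Bmp1, the procollagen C-proteinase, fell from 278 and 296 to 1.03 and 2.68 CPM, and Aebp1, a collagen-binding carboxypeptidase-like protein, from 306 and 306 to 2.7 and 2.81.

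All 4 tested lysyl oxidases fell, by very unequal amounts, where 34.4% of all genes fell. Lox itself held 1011 and 1043 CPM in libraries labelled alone and 0.124 and 0.0624 in those labelled co-cultured, which were 6 and 3 reads. The ratio of pooled reads was 11006 (95% counting interval 5798 to 24070.0) and the log2 change -13.18 ± 0.23, adjusted p = 1.9e-11 (edgeR), the largest fall among the 16739 genes tested. Loxl3 fell from 204 and 235 CPM to 0.578 and 0.957 and Loxl4 from 15.4 and 14.7 to 1.53 and 1.19. Loxl2, an oxidase of the same family that acts on collagen IV, kept 48.8 and 51.6 CPM after 135 and 140.3 alone (log2 change -1.24 ± 0.12, adjusted p = 2.8e-06, edgeR), so it was the 1 lysyl oxidase of 4 not lost.

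Adhesive and matricellular glycoproteins held a large share of the matrix counts in ILC2s labelled alone, at 5849 and 6324 CPM summed over 10 genes, against 23.8 and 24.1 co-cultured. Sparc, a collagen-binding matricellular protein (chromosome 11, 55394159 to 55420080), held 2139 and 2317 CPM alone and 1.24 and 0.25 co-cultured (log2 change -11.32 ± 0.40, adjusted p = 8.5e-10, edgeR). Thbs1, encoding thrombospondin 1, fell from 1476 and 1480.0 CPM to 4.81 and 4.43. The growth-factor-like matricellular genes Ccn1 and Ccn2 fell from 508 and 559 CPM to 0.97 and 0.416 (log2 change -9.36 ± 0.27, adjusted p = 2e-10, edgeR) and from 658 and 833 to 1.11 and 0.395 (-9.72 ± 0.32, adjusted p = 4.9e-10). Of Ccn2's exonic bases 23.2% are shared with an antisense transcript. Tnc, encoding tenascin C, fell from 416 and 427 to 0.454 and 0.458 CPM (-9.63 ± 0.18, adjusted p = 1.9e-11, edgeR), and fibronectin, Fn1, from 589.8 and 649 to 0.165 and 1.75, where co-cultured replicate 2 was well above replicate 1. Thbs2 was lost, from 7.47 and 6.35 to 0.0825 and 0.458 CPM.

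Ccn4 and Thbs3 fell but were not lost. Ccn4, a target of WNT signalling, held 48.2 and 46.8 CPM alone and 13.1 and 13.5 co-cultured (log2 change -1.62 ± 0.13, adjusted p = 6.7e-07, edgeR), and Thbs3 held 6.9 and 5.76 alone and 1.75 and 1.71 co-cultured. Ccn6 lay between 0.180 and 0.707 CPM and was not called.

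Among the 9 laminin chains, which assemble as alpha, beta and gamma trimers, summed CPM barely moved (220.0 and 201.2 alone, 206.2 and 207.5 co-cultured), while single chains went in opposite directions. Lama4, Lamb2, Lama3, Lamb3 and Lamc3 were lost: Lama4 held 43.4 and 38.6 CPM alone and 0.206 and 0.291 co-cultured, and Lamb2 held 16.1 and 14.8 alone and 0.144 and 0.437 co-cultured. Lamc3 held 7.06 and 6.57 alone and 0.949 and 0.125 co-cultured, with the co-cultured replicates far apart. Lama5, an alpha chain found in many basement membranes (chromosome 2, 180176373 to 180225904), held 25.2 and 22 CPM alone and 63.8 and 72.5 co-cultured (log2 change 1.74 ± 0.13, adjusted p = 4e-07, edgeR). Lamc1, the gamma chain of most laminins (chromosome 1, 153218922 to 153332786), held 79.1 and 73 alone and 127 and 119.7 co-cultured (0.91 ± 0.12, adjusted p = 4.6e-05, edgeR). For both the co-cultured libraries were the higher ones without overlap, but Lamc1 changed sign under scaling to ILC2 identity genes. Lama2 held 1.4 and 1.37 CPM alone and 0.0413 and 0.936 co-cultured and was not called.

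Secreted MMPs fell in all 6 cases tested, where 34.4% of all genes fell. Mmp3, stromelysin 1, held 697 and 748 CPM alone and 0.144 and 0.125 co-cultured (log2 change -12.15 ± 0.21, adjusted p = 1.9e-11, edgeR). Mmp9, a gelatinase known from neutrophils and macrophages, fell from 861 and 874 CPM to 4.64 and 2.35, and Mmp2, the gelatinase of fibroblasts, from 82.6 and 93.6 to 0.289 and 0.333. Mmp10, stromelysin 2, kept more, at 11.9 and 11 CPM after 444 and 453. Mmp19 went from 23 and 33.7 to 0.0619 and 0.125 CPM, which were 3 and 6 reads co-cultured. Its ratio of pooled reads was 302 (95% counting interval 159 to 660.0), and 28.3% of its exonic bases overlap antisense genes. Mmp11, which is activated inside the cell, held 8.74 and 8.64 CPM alone and 2.93 and 3.04 co-cultured and was the 1 secreted MMP not lost (log2 change -1.33 ± 0.18, adjusted p = 5.8e-05, edgeR).

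Mmp3, Mmp7, Mmp10, Mmp12 and Mmp13 lie in 1 cluster on chromosome 9 whose genes span 7272514 to 7699585. In the ILC2 table Mmp3 and Mmp10 fell. Mmp12 and Mmp13 were in the CD8 table, where both were lower in libraries labelled co-cultured. The start windows are shown because these were the 5 genes of the set, with Mmp7, whose RefSeq window (250 bases before to 50 after the start, GRCm38.p6) held both TATAAA and TGANTCA, the letters of the TATA box and of the AP-1 site. Capitals mark both motifs, which were searched on both strands and do not overlap.
Mmp3, chr9:7445572-7445871, plus strand: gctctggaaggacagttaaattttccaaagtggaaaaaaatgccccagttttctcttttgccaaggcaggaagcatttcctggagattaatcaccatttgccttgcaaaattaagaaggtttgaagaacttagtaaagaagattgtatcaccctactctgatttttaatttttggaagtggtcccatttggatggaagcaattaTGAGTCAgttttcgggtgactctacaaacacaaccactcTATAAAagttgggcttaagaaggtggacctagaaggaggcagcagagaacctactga
Mmp10, chr9:7502092-7502391, plus strand: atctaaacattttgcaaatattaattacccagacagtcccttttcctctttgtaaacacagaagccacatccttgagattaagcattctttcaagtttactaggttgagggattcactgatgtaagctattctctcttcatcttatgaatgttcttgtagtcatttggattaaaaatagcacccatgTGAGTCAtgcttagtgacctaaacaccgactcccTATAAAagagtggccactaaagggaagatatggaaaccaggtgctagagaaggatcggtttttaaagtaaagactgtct
Mmp12 start 2, chr9:7347124-7347423, plus strand: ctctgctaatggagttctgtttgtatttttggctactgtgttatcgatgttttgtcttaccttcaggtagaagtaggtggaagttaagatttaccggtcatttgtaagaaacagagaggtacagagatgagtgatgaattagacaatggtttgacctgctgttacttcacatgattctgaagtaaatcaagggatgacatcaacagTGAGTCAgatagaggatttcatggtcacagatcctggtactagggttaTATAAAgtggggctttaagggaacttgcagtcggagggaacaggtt
Mmp13, chr9:7272264-7272563, plus strand: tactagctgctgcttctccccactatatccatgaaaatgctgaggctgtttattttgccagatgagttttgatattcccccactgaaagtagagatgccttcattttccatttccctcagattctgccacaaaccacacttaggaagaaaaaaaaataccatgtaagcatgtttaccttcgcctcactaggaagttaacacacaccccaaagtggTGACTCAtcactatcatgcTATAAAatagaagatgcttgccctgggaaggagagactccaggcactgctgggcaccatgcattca
TATAAA began 7 bases before the start in Mmp3, 29 in Mmp10 and 16 in Mmp13, and 5 bases after it in Mmp12. TGANTCA began 46 bases before the start in Mmp3, 63 in Mmp10, 44 in Mmp12 and 35 in Mmp13. Both motifs occurred together in 5 of the 59 windows of 51 matrix genes (8.475%) and in 1.543% of all 32851 windows, while TATAAA alone was in 13.62% and TGANTCA in 7.808% of all. The start 1 window of Mmp12 held neither. None of 19 windows of genes not lost in ILC2s held TGANTCA, against 3 of 30 windows of lost genes, which is a description of these letters and no test.

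Membrane-bound MMPs were split. Mmp14, a collagenase on the surface of the cell (chromosome 14, 54431598 to 54442456), fell from 453 and 415 CPM to 9.41 and 8.59 (log2 change -5.37 ± 0.15, adjusted p = 1.4e-10, edgeR), and Mmp23 fell from 28.1 and 28.7 to 0.371 and 0.166. Mmp17 held 10.5 and 11.4 CPM alone and 8.25 and 7.84 co-cultured and was not called (-0.22 ± 0.16, adjusted p = 0.24, edgeR). Mmp25, a glycolipid-anchored protease first known from leukocytes (chromosome 17, 23628315 to 23645269), rose from 23 and 26.8 CPM to 64.6 and 54.9 (1.48 ± 0.15, adjusted p = 4.6e-06, edgeR), with both co-cultured libraries above both alone.

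The 3 tested inhibitors of MMPs, of 4 listed, were all lost, as were 5.88% of all tested genes. Timp1 (X chromosome, 20870166 to 20874737) held 1340.4 and 1424 CPM alone and 4.72 and 6.03 co-cultured, Timp2 held 215 and 235 alone and 1.67 and 1.93 co-cultured (log2 change -6.75 ± 0.16, adjusted p = 6.4e-11, edgeR), and Timp3 held 487 and 507 alone and 1.3 and 1.62 co-cultured. The ratios of pooled reads were 257 for Timp1, 124 for Timp2 and 339.8 for Timp3. Timp3 lies within the Syn3 locus on the opposite strand, and 21.3% of its exonic bases are shared.

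Among Adamts genes, Adamts1 and Adamts4, which cut proteoglycans, were lost, from 42.7 and 42.2 CPM to 0.227 and 0.229 and from 61.9 and 65.4 to 0.0825 and 0.0832. Adamts14, a procollagen N-proteinase, fell from 25.3 and 25.5 CPM to 0.557 and 0.291 (log2 change -5.68 ± 0.25, adjusted p = 5.4e-09, edgeR). Adamts10, a protease of fibrillin microfibrils (chromosome 17, 33523646 to 33553782), rose from 23.2 and 19 CPM to 58 and 50.5 (1.58 ± 0.15, adjusted p = 2.8e-06, edgeR). Adamts13, the protease of von Willebrand factor, rose at a low level, from 0.181 and 0.235 to 0.66 and 0.686 CPM. Adamts6, a relative of Adamts10, held 14 and 14.1 CPM alone and 18 and 14.7 co-cultured. Its call (0.44 ± 0.16, adjusted p = 0.031, edgeR) was lost without alone replicate 1, alone replicate 2 or co-cultured replicate 1 (adjusted p from 0.082 to 0.29) and with library totals (0.22, adjusted p = 0.23), and the change turned under scaling to ILC2 identity genes. Adamts3 lay between 0.392 and 0.632 CPM and was not called.

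The rises depend in part on what the libraries are scaled to. With TMM scaling factors 31.8% of all tested genes rose and 34.4% fell. With library totals alone the split was 25.5% and 41.1% and the median of all genes was -0.22. Scaling to ILC2 identity genes moved that median to -1.19 and the split to 5.91% and 71.1%. Under this last scaling Col18a1 (0.84), Lama5 (0.56), Adamts10 (0.40) and Plod2 (0.32) were still called higher on the log2 scale, Mmp25 (0.30), P3h2 (0.27) and the low Adamts13 (0.73) were not called, and Lamc1 (-0.27) and Adamts6 (-0.75) were called lower. P3h3, P3h1 and Plod1 passed the 8-fold line under it, which leaves 25 genes not lost. The 9 genes called higher under TMM scaling lay above the median of all genes under these 3 scalings. A change of scaling shifts all genes by nearly the same amount, so this had to follow and is no check on the rises.

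**Figure D2:**
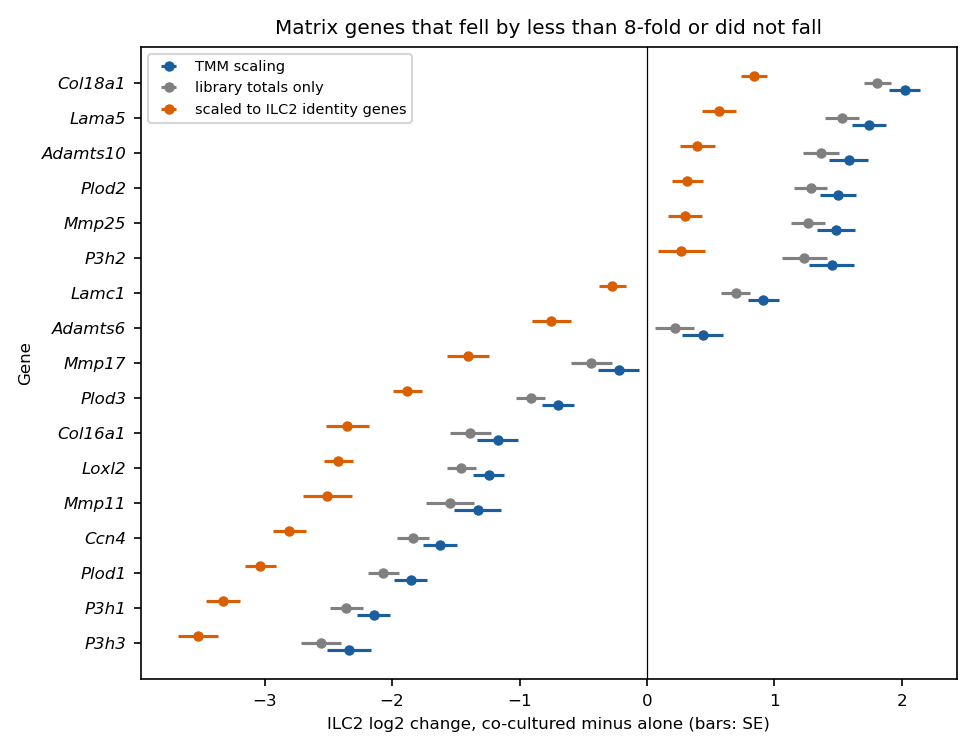
Log2 change (co-cultured minus alone, with bars for the SE of the fit) of 17 matrix genes that were not lost in ILC2s and averaged a log2 CPM of 2 or more, under TMM scaling (blue), library totals (grey) and scaling to ILC2 identity genes (orange). Under identity scaling Col18a1, Lama5, Adamts10 and Plod2 keep a called rise, Mmp25 and P3h2 lose theirs, and Lamc1 and Adamts6 turn to -0.27 and -0.75.

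Scaled by exon length (CPM per kilobase of exon, RPKM, with GENCODE M21 lengths), the order of the genes changed between the ILC2 groups. Labelled alone, Timp1 led with 1557 ± 66.5 RPKM (SD, n = 2), followed by Sparc (588 ± 33.2), Mmp3 (401 ± 19.8) and Serpinh1 (309 ± 30.2), 4 genes whose neighbouring levels differed by more than their SDs. Ccn1, Ccn2 and Mmp10 followed between 264 and 260 RPKM and were not separated by their spread. Mmp9 (245 ± 2.57) was next, below Mmp10 (260 ± 4.05) by more than their SDs. Labelled co-cultured, Plod2 led with 60.3 ± 6.05 RPKM, then Col18a1 (47.4 ± 1.28), Lamc1 (14.9 ± 0.600), Plod3 (13.8 ± 0.250), Mmp25 (11.3 ± 1.30) and Loxl2 (9.28 ± 0.374). Timp1 had 6.06 ± 1.04 RPKM there. In CD8 T cells labelled alone Plod2 (7.39 ± 0.266) and Plod3 (6.15 ± 0.266) were the highest, and labelled co-cultured Lamc1 (11.2 ± 0.897), Plod2 (9.97 ± 0.761) and Plod3 (9.91 ± 0.175) were, of which Plod2 and Plod3 lay within their spread.

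In CD8 T cells most of the tested matrix genes rose with co-culture. Together the matrix genes took 203.9 and 208.9 CPM labelled alone and 422.5 and 429.6 labelled co-cultured, less than in ILC2s. Single genes, Adamts14, Mmp14 and Lamb3 among them, were higher in co-cultured CD8 T cells than in co-cultured ILC2s. Of 45 genes past the filter, 28 were higher, 8 lower and 9 not called by edgeR's quasi-likelihood test. Over all tested genes 60.9% were called, 30.2% higher and 30.7% lower. The median log2 change of the 45 was 1.11, against -0.01 for all 15948 genes. CPM of the groups did not overlap in 31 genes that were higher co-cultured (44.1% of all genes) and in 8 that were higher alone (37.1% of all genes). Adamts4, Col27a1, Col4a3, Lamb2, Mmp9 and Pcolce were in the table but under the filter. Of the 28 rises 14 were in genes that averaged a log2 CPM of 2 or more.

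**Figure D3:**
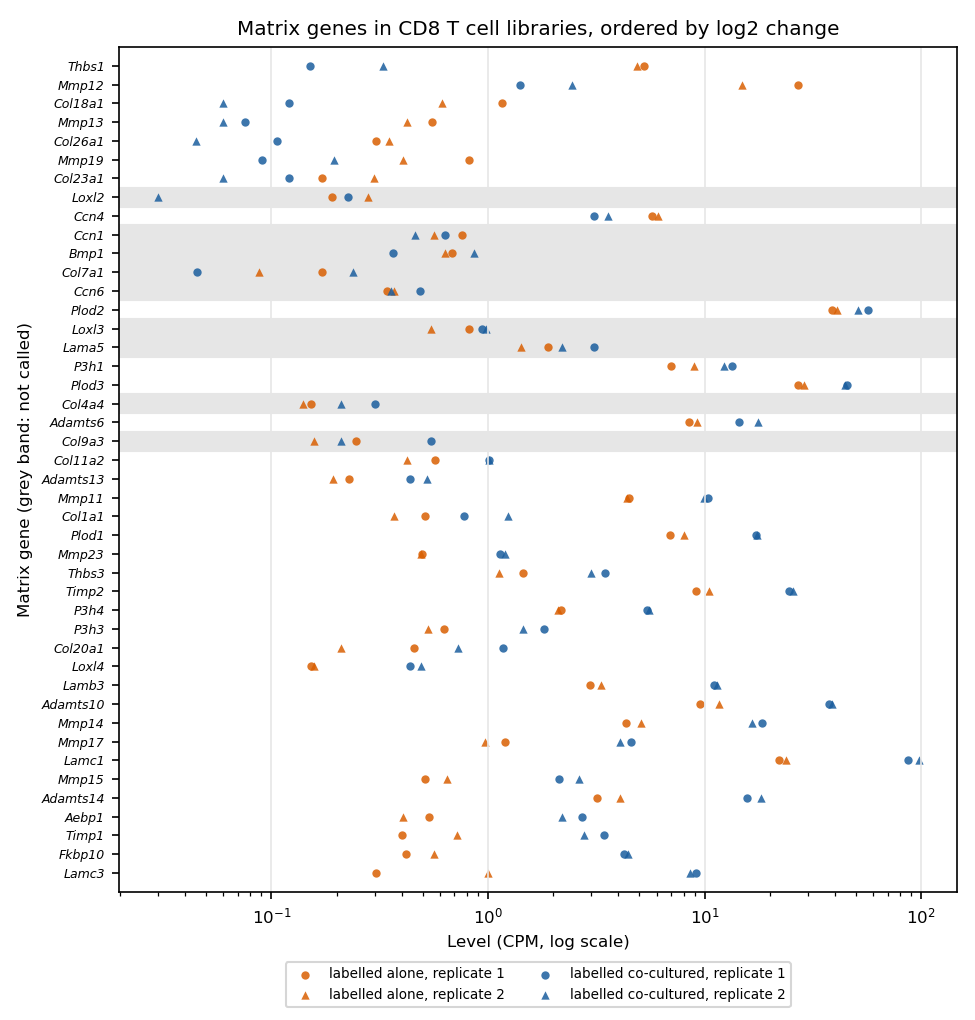
Level (CPM, log axis) of 44 tested matrix genes in the 4 CD8 T cell libraries, 1 row per gene, ordered from the largest fall (top) to the largest rise (bottom), with orange marks for libraries labelled alone, blue for those labelled co-cultured, circles for replicate 1, triangles for replicate 2 and a grey band where the change did not pass the test. Blue marks lie to the right of orange ones in 30 rows and to the left in 8, and Lamc3 lies at the bottom with the largest rise.

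Of 5 laminin chains tested in CD8 T cells 4 rose, among them Lamc3, with the largest rise of the set, where 30.2% of all genes rose. Lamc1 held 22 and 23.8 CPM alone and 87.1 and 97.6 co-cultured (log2 change 1.93 ± 0.09, adjusted p = 4.9e-09, edgeR). Lamc3 held 0.304 and 0.999 alone and 9.1 and 8.57 co-cultured (3.66 ± 0.32, adjusted p = 6.4e-07), and Lamb3 2.96 and 3.33 alone and 11 and 11.3 co-cultured (1.75 ± 0.15, adjusted p = 5.5e-07). The co-cultured libraries were higher without overlap in these 3 chains, and for Lamc3 alone replicate 2 was well above replicate 1. Lama5, at 1.9 and 1.42 CPM alone and 3.1 and 2.19 co-cultured, was not called (0.59 ± 0.25, adjusted p = 0.053, edgeR).

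All 4 tested membrane-bound MMPs (of 7 listed), all 4 tested Adamts genes (of 19) and both tested TIMPs (of 4) rose in CD8 T cells. By contrast, 3 of 4 tested secreted MMPs (of 14 listed) fell. Over all tested genes 30.2% rose and 30.7% fell. Mmp14 held 4.33 and 5.08 CPM alone and 18.4 and 16.6 co-cultured (log2 change 1.81 ± 0.14, adjusted p = 2.2e-07, edgeR), and the other tested membrane-bound MMPs Mmp15, Mmp17 and Mmp23 rose at levels of at most 4.58 CPM. Mmp11 held 4.46 and 4.4 CPM alone and 10.3 and 9.9 co-cultured (1.11 ± 0.14, adjusted p = 1.7e-05, edgeR). Timp2 held 9.1 and 10.5 CPM alone and 24.6 and 25.5 co-cultured (1.27 ± 0.12, adjusted p = 9.3e-07, edgeR), and Timp1 went from 0.399 and 0.718 to 3.42 and 2.79 CPM. Adamts10 held 9.49 and 11.7 CPM alone and 37.4 and 38.8 co-cultured (1.76 ± 0.11, adjusted p = 6.2e-08, edgeR), Adamts14 held 3.17 and 4.08 alone and 15.6 and 18.2 co-cultured (2.14 ± 0.16, adjusted p = 1.7e-07), Adamts6 held 8.51 and 9.25 alone and 14.4 and 17.6 co-cultured (0.77 ± 0.13, adjusted p = 0.00028), and Adamts13 stayed at or below 0.522 CPM.

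All 7 tested collagen hydroxylases and chaperones rose in CD8 T cells, where 30.2% of all genes rose. Plod1 held 6.95 and 7.99 CPM alone and 17.3 and 17.4 co-cultured (log2 change 1.14 ± 0.13, adjusted p = 5.3e-06, edgeR), Plod3 held 26.9 and 28.6 alone and 45.4 and 44.2 co-cultured (0.61 ± 0.08, adjusted p = 4e-05), and Plod2 held 38.8 and 40.9 alone and 56.7 and 50.9 co-cultured (0.35 ± 0.08, adjusted p = 0.0029). P3h1 held 7.01 and 8.97 CPM alone and 13.3 and 12.3 co-cultured (0.60 ± 0.15, adjusted p = 0.0032, edgeR), P3h4 2.18 and 2.1 alone and 5.41 and 5.53 co-cultured, and P3h3 0.627 and 0.526 alone and 1.81 and 1.45 co-cultured. Fkbp10 rose 8.85 times by pooled reads, from 0.418 and 0.561 CPM to 4.26 and 4.44. Aebp1 rose from 0.532 and 0.403 to 2.71 and 2.21 CPM, and Loxl4 and Thbs3 rose at levels of at most 3.48 CPM, whereas Loxl2, Loxl3, Bmp1, Ccn1 and Ccn6 were below 1 CPM and were not called.

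No collagen gene passed 1.24 CPM in any CD8 T cell library. Col1a1 rose from 0.513 and 0.368 CPM to 0.771 and 1.24, and Col11a2 and Col20a1 also rose at levels of at most 1.18 CPM. Col18a1 fell, from 1.16 and 0.613 CPM to 0.121 and 0.0596, which were 8 and 4 reads. Col23a1 and Col26a1 fell at levels of at most 0.350 CPM, with 3 reads of Col26a1 in 1 co-cultured library. Col4a4, Col7a1 and Col9a3 were not called.

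The other falls were of secreted MMPs and matricellular genes. Mmp12, macrophage elastase, held 26.9 and 14.8 CPM alone, with replicate 1 well above replicate 2, and 1.41 and 2.44 co-cultured (log2 change -3.51 ± 0.28, adjusted p = 3.1e-07, edgeR). Ccn4 held 5.73 and 6.1 CPM alone and 3.1 and 3.58 co-cultured (-0.91 ± 0.17, adjusted p = 0.00042, edgeR). Thbs1 fell from 5.26 and 4.87 CPM to 0.151 and 0.328, Mmp13, collagenase 3, from 0.551 and 0.42 to 0.0756 and 0.0596, and Mmp19 from 0.816 and 0.403 to 0.0907 and 0.194. Of the macrophage markers, 7 of 15 were in the CD8 table, of which Lyz2, Csf1r and Siglecf fell and Chil3 and Cd68 rose, with a summed level of 22.0 to 23.5 CPM alone and 38.1 to 41.2 co-cultured. Of 19 tested ILC2 identity genes 7 rose and 10 fell, where 30.2% of all genes rose and 30.7% fell. The summed level of the identity genes was 1687 to 1709 CPM alone and 1976 to 2060.4 co-cultured. Il5 fell from 10.5 and 9.86 CPM to 0.665 and 0.686 and Kit rose from 36.4 and 50.5 to 384 and 378. Their part in these results was not tested.

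The co-culture changes of both cell types were then set against each other in 1 model over all 8 libraries. Of 43 matrix genes tested, 31 had a lower log2 change in ILC2s than in CD8 T cells (33% of all 15540 genes), 3 had a higher one (20.5% of all genes) and 9 did not pass the test, which 53.5% of all genes passed. The 3 were Col18a1 (ILC2 minus CD8, 5.18 ± 0.40, adjusted p = 2.4e-08), Plod2 (0.98 ± 0.16, adjusted p = 0.0001) and Lama5 (0.98 ± 0.24, adjusted p = 0.003, edgeR). The difference was not tested under scaling to ILC2 identity genes. Under that scaling Plod2 and Lama5 rose by 0.32 and 0.56 in ILC2s, near their TMM-scaled changes of 0.35 and 0.59 in CD8 T cells. For Col18a1 these values were 0.84 and -3.34. Adamts10 rose in both cell types under TMM scaling by amounts that the test did not separate (-0.35 ± 0.19, adjusted p = 0.14, edgeR), and Adamts6 and Adamts13 likewise. Under identity scaling the ILC2 changes of Adamts10, Adamts6 and Adamts13 were 0.40, -0.75 and 0.73 (the last not called). Their TMM-scaled changes in CD8 T cells were 1.76, 0.77 and 1.11. Lamc1 also rose in both, under TMM scaling, and more in CD8 T cells (-1.19 ± 0.15, adjusted p = 5.2e-06, edgeR). Loxl2 fell in ILC2s and was not called in CD8 T cells, yet the difference did not pass the test, with 2 reads in 1 co-cultured CD8 library (-0.45 ± 0.59, adjusted p = 0.54, edgeR).

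Of 39 genes tested in both tables, 19 fell in ILC2s and rose in CD8 T cells, as did 6.33% of all 14835 genes tested in both. Of these 19 genes 12 were among the lost ones. Fkbp10, Timp1, Aebp1, Mmp14, Adamts14 and Timp2 were in this group, as were Plod1, Plod3, P3h1 and Mmp11 among those not lost in ILC2s. The co-cultured levels of these genes were close in the cell types for some and apart for others. Plod1 stood at 20.5 and 20.7 CPM in ILC2s and 17.3 and 17.4 in CD8 T cells, and P3h1 at 10.7 and 11.8 in ILC2s and 13.3 and 12.3 in CD8 T cells. Plod3 stood at 63.3 and 61.7 CPM in ILC2s and 45.4 and 44.2 in CD8 T cells, Mmp11 at 2.93 and 3.04 and at 10.3 and 9.9, and Fkbp10 at 0.454 and 0.541 and at 4.26 and 4.44. In 5 genes both cell types rose (Adamts10, Adamts13, Adamts6, Lamc1 and Plod2, against 16.9% of all genes), and in 3 both fell (Ccn4, Mmp19 and Thbs1, against 17.8%). Under identity scaling Adamts6 and Lamc1 turn in ILC2s and Adamts13 is not called. Col18a1 was the 1 matrix gene that rose in ILC2s and fell in CD8 T cells, as did 4.54% of all genes.

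**Figure D4:**
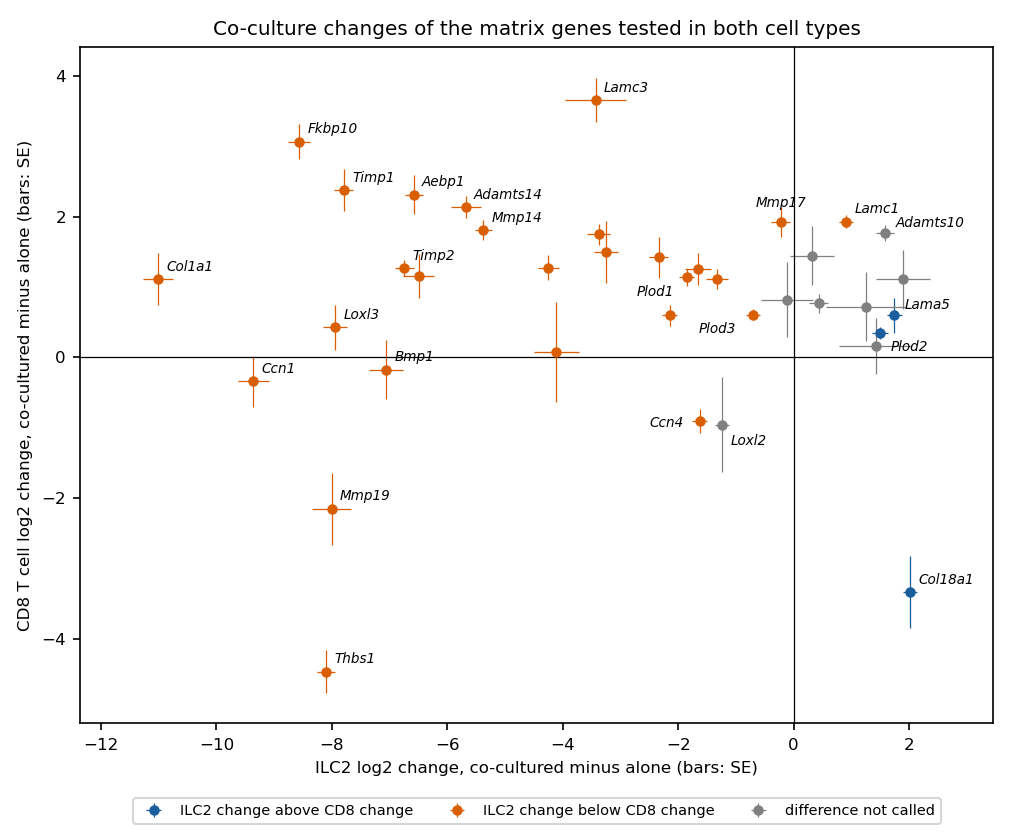
Log2 change with co-culture in ILC2s (horizontal axis) and in CD8 T cells (vertical axis) of 38 matrix genes tested in both tables, with bars for the SE of each fit, orange where the ILC2 change was below the CD8 change, blue where it was above and grey where the difference did not pass the test. At the upper left lie 18 genes called lower in ILC2s and higher in CD8 T cells, Col18a1 lies alone at the lower right, and Thbs1 and Mmp19 lie at the lower left.

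Matrix genes outside the set also went both ways in ILC2s, where 34.4% of all genes fell and 31.8% rose. Of 17 tested proteoglycan and elastic fibre genes 13 fell and 4 rose. The largest fall of these was of Spp1, encoding osteopontin, from 12104 and 12389 CPM to 8.21 and 7.86 (log2 change -10.36 ± 0.15, adjusted p = 7.5e-12, edgeR), and Srgn, the proteoglycan of leukocyte granules, rose. Of 16 other collagen-processing genes 6 rose, among them P4hb and P4ha1 of prolyl 4-hydroxylase, 4 fell, among them Ctsk and Pcolce2, and 6 were not called. Of 23 matrix receptors 14 fell and 7 rose, Itgb3, Sdc3 and Itga3 the most. Among other proteases and inhibitors 12 of 20 fell and 7 rose, and 6 of 9 other basement membrane genes fell, Hspg2 the most.

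In CD8 T cells, where 30.2% of all genes rose and 30.7% fell, 7 of 11 other collagen-processing genes rose and 2 fell. Tgm2, the cross-linking enzyme transglutaminase 2, rose most, from 54.7 and 52.8 CPM to 763 and 787 (log2 change 3.77 ± 0.08, adjusted p = 5.9e-12, edgeR), while in ILC2s it fell. Of 17 other proteases and inhibitors 12 rose and none fell, and Adamtsl4, Adam19 and Plaur had the largest rises among those that averaged a log2 CPM of 2 or more. Of 18 receptors 10 rose and 4 fell, and the syndecans Sdc3 and Sdc1 rose most, from 4.94 and 6.11 to 44.2 and 48 CPM (2.98 ± 0.12, adjusted p = 1.6e-09, edgeR) and from 5.22 and 7.2 to 41.9 and 43.6 (2.70 ± 0.14, adjusted p = 8.5e-09). Proteoglycan and elastic fibre genes went both ways, with 4 of 13 higher and 6 lower.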

How the data were processed

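Bulk RNA of sorted cells was sequenced in 8 libraries, 4 per cell type. The authors deposited 2 tables of raw read counts per gene symbol, 1 per cell type, in which no value is 0 and the lowest is 1, so genes with 0 reads in a library of a table are not in that table. HISAT2 2.1.0, StringTie 2.1.3b, Trimmomatic 0.38 and SAMtools 1.9 are listed, with mm10 as the build, in the submitters' processing notes. What each tool did, the annotation, the strand setting and filters were not given in the sources used here. Per the labels' protocols, Trizol extraction was followed by SMART-Seq v4 amplification.

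Each table was fitted whole in R 4.3.3 by edgeR 4.0.16 (low counts removed by filterByExpr, TMM factors, quasi-likelihood F test, Benjamini-Hochberg over all tested genes, threshold 0.05), with 2 residual and 9.23 (ILC2) or 10.4 (CD8) prior degrees of freedom, and the cell types were compared by an interaction over all 8 libraries (4 residual, 11.5 prior). Matrix genes were read out of these fits. A log2 change is co-cultured minus alone, its error is the SE (the change divided by the root of F), and CPM uses the library total. Intervals of ratios are exact 95% binomial ones and cover counting error only. Between replicates the chi-square per gene was 12.5 to 25.9, above sampling noise, so each library counted as 1. Positions and start windows come from RefSeq (GRCm38.p6, 51 of 82 genes had a window), exon lengths and overlaps from GENCODE M21 (82 of 82). Alternatives used DESeq2 1.42.0, limma-voom (limma 3.58.1), other scalings, filters and left-out libraries. On simulated counts made from these tables edgeR recovered 100% of changes of 3 on the log2 scale in each comparison, and 75% (ILC2), 88% (CD8) and 66% (interaction) of changes of 1 (100 genes of each size). Of the genes called on those counts, 7.41% (ILC2), 10.9% (CD8) and 6.74% (interaction) were called falsely, each a larger share than the threshold of 0.05.

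Every matrix gene may be named with its CPM, except 1 that enters the counts and sums and is not reported or drawn here. Full statistics go to the 10 largest called falls and rises per table among genes that average a log2 CPM of 2 or more, to the genes not lost in ILC2s at that level and to those called in opposite directions, and of each other list to the 3 largest called changes. The genes and lists were chosen with earlier results of these data known, so they are described by counts and medians beside all genes and no list was tested.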

Additional observations from a re-analysis of the deposited data

Results flagged for a closer look

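Some matrix genes that averaged a log2 CPM of 2 or more in both tables were called in opposite directions in ILC2s and CD8 T cells, and the difference itself passed edgeR's interaction test. Each value is the ILC2 log2 change minus the CD8 log2 change ± SE over 8 libraries, and the groups did not overlap in either cell type for any of the 8 given here. The MMP inhibitor Timp2 differed by -8.19 ± 0.18 (adjusted p = 2.2e-14), the procollagen N-proteinase Adamts14 by -7.99 ± 0.31 (adjusted p = 6.3e-12) and the surface collagenase Mmp14 by -7.36 ± 0.17 (adjusted p = 2.9e-14). The laminin chain Lamb3 differed by -5.30 ± 0.25 (adjusted p = 6.4e-11). For the hydroxylases the values were -3.16 ± 0.17 for Plod1 (adjusted p = 2.7e-10), -2.91 ± 0.19 for P3h1 (adjusted p = 3.3e-09) and -1.48 ± 0.14 for Plod3 (adjusted p = 3.8e-07). Mmp11 differed by -2.61 ± 0.22 (adjusted p = 8.3e-08). In these 8 the ILC2 side carries the fall. The ILC2 libraries labelled alone also held more RNA of T cell and macrophage markers and of 4 of 8 fibroblast markers. Of the other fibroblast markers 1 rose and 3 were not called. The part of that RNA was not tested.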

How the results depend on the processing

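Counts of matrix genes stayed within 1.5 times of the reported ones in all alternatives but those in the next 3 sentences. Scaling to ILC2 identity genes left 4 higher in ILC2s in place of 9 (60 lower), with Lamc1 at -0.27 and Adamts6 at -0.75 on the log2 scale, against 0.91 and 0.44; the cause was not tested beyond the shift of all genes given above. In 1 fit over all 8 libraries 31 were lower in ILC2s and 4 lower in CD8 T cells, where 43 matrix genes could be tested. With a minimum of 50 reads in 2 libraries 3 were lower in CD8 T cells, where 30 could be tested. Without 1 library at a time, 7 to 10 were higher and 53 to 54 lower in ILC2s, 23 to 28 higher and 7 to 9 lower in CD8 T cells, and 3 to 4 above and 31 to 33 below in the interaction. The number not lost was 29 to 30 there, where more genes passed the filter, 26 at a 4-fold and 32 at a 16-fold threshold, 25 under identity scaling and 21 with the 50-read minimum (65 tested). DESeq2 gave 9 higher and 54 lower in ILC2s and 24 and 7 in CD8 T cells. Of the genes given full statistics, the ILC2 values kept direction and call in 379 cases, lost the call in 8, gained a call in 3 and turned in 2, and the CD8 values of called genes kept both in all 168, whereas Lama5, not called in CD8 T cells, was called higher there with library totals (0.67, adjusted p = 0.033); Mmp17 was called lower with library totals (-0.44), in 1 fit over all libraries (-0.38) and under identity scaling (-1.40).

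Same-numbered libraries of a cell type did not deviate together (correlation 0.042 in ILC2s and -0.027 in CD8 T cells). With 2 replicates a group this does not settle whether the numbers are a pairing. Same-numbered libraries of ILC2s and CD8 T cells were not compared, and the interaction fit took all 8 libraries as separate. With the replicate number as a block 9 were higher and 54 lower in ILC2s, 29 and 7 in CD8 T cells, 3 and 33 in the interaction, and 28 were not lost. With 2 libraries a group each p rests largely on the spread of other genes. Genes under about 10 reads in a co-cultured library, 16 of the 44 lost ones, have falls whose size is poorly known. The counting intervals pool both replicates and leave out the spread between them. That spread was wide for Fn1 (0.165 and 1.75 CPM co-cultured) and Col6a2 (0.495 and 0.0416).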
